A study of Mus musculus with 9 samples.

Results

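Gsn, Vim, Ahnak, Papss2, Ikzf2, Rrad, Paqr7 and Fgf3 are 8 genes of the 27999 rows measured in G1E cells that stood several-fold lower with wildtype GATA1 than with a GATA1 mutant. They were picked by name because their wildtype libraries lie well below their mutant libraries, with no stated threshold, and all 8 were found in the table and passed the filter on low counts. G1E cells are mouse erythroid precursors without functional Gata1, a loss that holds them at an immature stage. All 9 libraries come from this line, grown with stem cell factor and erythropoietin, and 3 groups of 3 libraries were made by infecting the cells with the HMD viral vector. The vector carried the cDNA of a human GATA1 mutant (GATA1_mut), carried that of human wildtype GATA1 (GATA1_wt), or was empty (HMD). Which mutation it is, how long after infection cells were taken and whether infected cells were selected were not given in the labels. Totals ranged from 11364358 to 17289307 counts per library.

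GATA1 is the transcription factor of erythroid, megakaryocyte and mast cell development. As background, it turns on genes of red cell maturation and turns down genes of the progenitor state, the second partly through its cofactor FOG1 (Zfpm1) and repressive complexes that FOG1 brings along. Restoring GATA1 to G1E cells is a standard way to watch both activities in the same cells. The 8 genes encode proteins that are best known outside the red cell. Gsn (gelsolin) severs and caps actin filaments, Vim (vimentin) forms intermediate filaments, and Ahnak is a very large scaffold beneath the plasma membrane. Papss2 makes the activated sulfate that sulfotransferases use, and Ikzf2 (Helios) is a zinc finger transcription factor of the Ikaros family known from T cells. Rrad is a small GTPase of the RGK group that binds calcium channel beta subunits, Paqr7 is a membrane progestin receptor, and Fgf3 is a secreted fibroblast growth factor.

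The 8 genes lie on 6 chromosomes in GENCODE M21 (GRCm38), all as protein-coding genes. On the plus strand lie Gsn at chr2:35256380-35307892, Vim at chr2:13573927-13582826, Ahnak at chr19:8989284-9076914, Papss2 at chr19:32595790-32667187, Paqr7 at chr4:134496697-134510235 and Fgf3 at chr7:144838083-144844436. Gsn and Vim are thus 21.7 Mb apart, and Ahnak and Papss2 23.5 Mb. Ikzf2 spans chr1:69531214-69687245 and Rrad chr8:104628070-104631327, both on the minus strand, and Gm29114 and Gm33023 are annotated antisense to their exons over 144 and 141 bases. Since the library method keeps no strand, reads in those stretches cannot be assigned to a strand.

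RefSeq promoter windows of 300 bases, from 250 before to 50 after a transcript start on GRCm38.p6, were present for 6 of the 8 genes (all but Ikzf2 and Rrad) and numbered 10. They are shown because the genes stood low together with wildtype GATA1, whose DNA-binding fingers recognise GATA sequences. The word AGATAA, the word AGATAG, the word TGATAA and the word TGATAG were searched on both strands. They share GATA and can overlap each other. At least 1 of them was in 5 of the 10 windows, against 29.8% of 32851 windows of the same length, and the 5 belonged to Papss2, Paqr7 and Fgf3. Both Papss2 windows and both Paqr7 windows held a word, and the Paqr7 windows overlap, while the 3 Gsn windows and the single windows of Vim and Ahnak held none. The first windows of Papss2 (chr19:32595465-32595764, plus strand) and Paqr7 (chr4:134496511-134496810, plus strand), that of Fgf3 (chr7:144838362-144838661, plus strand), and that of Vim (chr2:13574061-13574360, plus strand) as one without a word, follow with the words in capitals.
Papss2: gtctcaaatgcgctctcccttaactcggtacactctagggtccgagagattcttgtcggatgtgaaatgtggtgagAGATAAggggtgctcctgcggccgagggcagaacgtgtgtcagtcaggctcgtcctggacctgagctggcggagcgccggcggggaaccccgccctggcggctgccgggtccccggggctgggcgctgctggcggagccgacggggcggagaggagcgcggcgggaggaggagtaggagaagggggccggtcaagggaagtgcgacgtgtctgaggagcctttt
Paqr7: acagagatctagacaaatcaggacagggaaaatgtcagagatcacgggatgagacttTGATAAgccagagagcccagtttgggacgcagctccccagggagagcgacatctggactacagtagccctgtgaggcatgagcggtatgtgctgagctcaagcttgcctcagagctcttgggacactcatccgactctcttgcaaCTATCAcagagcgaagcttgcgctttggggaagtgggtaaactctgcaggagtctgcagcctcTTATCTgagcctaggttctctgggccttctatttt
Fgf3: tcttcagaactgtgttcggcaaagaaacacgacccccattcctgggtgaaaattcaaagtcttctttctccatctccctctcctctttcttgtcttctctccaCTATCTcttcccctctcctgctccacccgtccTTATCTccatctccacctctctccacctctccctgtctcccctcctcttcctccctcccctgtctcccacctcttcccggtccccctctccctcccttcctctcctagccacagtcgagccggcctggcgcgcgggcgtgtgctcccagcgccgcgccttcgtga
Vim: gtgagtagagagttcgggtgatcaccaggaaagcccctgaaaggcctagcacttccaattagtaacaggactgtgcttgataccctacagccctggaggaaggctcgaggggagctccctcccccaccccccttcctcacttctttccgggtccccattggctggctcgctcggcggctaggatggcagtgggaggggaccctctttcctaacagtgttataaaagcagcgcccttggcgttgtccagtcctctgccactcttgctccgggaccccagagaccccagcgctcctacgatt
In Papss2 the word AGATAA begins 174 bases before the start. In Paqr7 TGATAA begins 193 bases before it, while TGATAG lies 48 bases before it and AGATAA 15 bases after it, both on the opposite strand. In Fgf3 the word AGATAG lies 147 bases and the word AGATAA 115 bases before it, both on the opposite strand. A match describes the letters of a window and says nothing of binding, and a window without one says only that these letters are not in it.

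The human transgene was present where the labels place it. Its RNA stood at 653 ± 53.9 CPM (a gene's counts relative to the library total) in the mutant libraries and 817 ± 103 CPM in the wildtype libraries (SD, n = 3 each), with an exact two-sided permutation p of 0.1, the smallest that 3 against 3 libraries allow. The 3 empty vector libraries held 0, 2 and 0 counts. Mutant replicates 1 and 2 were much more alike than any other pair of a group. Their counts differed by a chi-square of 2.21 per degree of freedom, against 14.97 to 55.5 for the other pairs, which is more than sampling noise, so they were kept as separate libraries and also summed as an alternative. The labelled erythroid line was checked against its markers. The summed level of 10 erythroid genes was 2820 to 2961 CPM with the mutant, 18740 to 29769 CPM with wildtype and 1610 to 2029 CPM with the empty vector.

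The cytoskeletal and scaffold genes had their lowest levels with wildtype. In the mutant libraries Gsn stood at 77.6, 85.5 and 70.5 CPM, in the wildtype libraries at 6.95, 12.2 and 7.28 CPM, and in the empty vector libraries at 45.8, 55.1 and 54.9 CPM, with library totals scaled by TMM factors for this and all further genes. All mutant libraries were above all empty vector libraries, and the wildtype libraries were far below both. Vim stood at 201, 198 and 163 CPM with the mutant, at 49.8, 67.9 and 64.7 CPM with wildtype and at 167, 229 and 238 CPM with the empty vector. Its mutant and empty vector libraries overlapped, while wildtype was below both. Ahnak stood at 26.5, 21.6 and 37.8 CPM with the mutant, at 5.52, 3.66 and 7.90 CPM with wildtype and at 9.67, 12.6 and 13.8 CPM with the empty vector. Its 3 groups did not overlap, and the mutant libraries were the highest of all.

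The enzyme and the transcription factor kept close to the empty vector with the mutant. Papss2 stood at 33.1, 30.5 and 30.2 CPM with the mutant, at 7.91, 6.45 and 8.60 CPM with wildtype and at 29.7, 35.4 and 33.5 CPM with the empty vector. The mutant libraries of this sulfate-activating enzyme lay within the range of the empty vector libraries. Ikzf2 stood at 8.58, 7.29 and 11.2 CPM with the mutant, at 1.36, 0.866 and 4.56 CPM with wildtype and at 12.0, 9.498 and 9.52 CPM with the empty vector. Its wildtype replicate 3 stood well above the other wildtype libraries, and the lowest of them rested on 9 counts.

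The signalling proteins differed in how the mutant stood to the empty vector. Rrad stood at 19.6, 19.8 and 12.9 CPM with the mutant, at 3.28, 4.91 and 3.60 CPM with wildtype and at 14.8, 14.0 and 16.5 CPM with the empty vector, and its mutant replicate 3 was below all empty vector libraries. Paqr7 stood at 26.1, 28.01 and 24.98 CPM with the mutant, at 5.76, 7.21 and 6.49 CPM with wildtype and at 17.1, 21.6 and 24.0 CPM with the empty vector. The lowest mutant library of this receptor gene lay just above the highest empty vector library. Fgf3 stood at 30.04, 27.0 and 28.6 CPM with the mutant, at 8.95, 18.6 and 8.95 CPM with wildtype and at 46.8, 50.002 and 54.9 CPM with the empty vector. Fgf3 was the 1 member whose mutant libraries were all below the empty vector libraries, and its wildtype replicate 2 stood well above the other wildtype libraries.

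**Figure D1:**
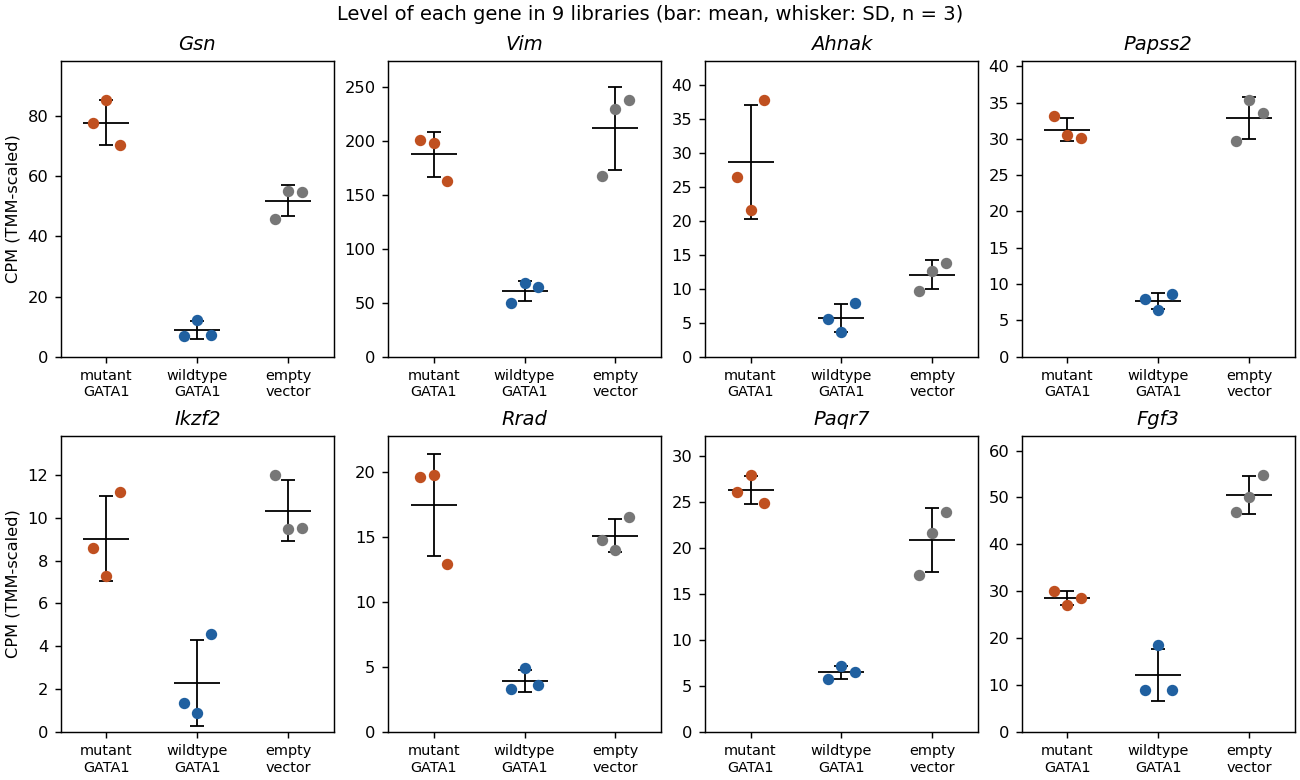
Level of each of the 8 genes in CPM (linear axes starting at 0) in the mutant, wildtype and empty vector libraries; points are libraries, the horizontal bar is the mean and the whisker the SD (n = 3). In every panel the 3 wildtype libraries lie below all mutant and all empty vector libraries. Over all tested genes, 17.3% were lower without overlap in wildtype than in empty vector libraries, and 23.3% were higher in mutant than in wildtype libraries. Fgf3 is the panel in which all mutant libraries lie between the other groups without overlap.

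The wildtype libraries were low but not empty. Wildtype means were 17.0% of the empty vector mean for Gsn (8.82 ± 2.95 against 51.9 ± 5.30 CPM, SD, n = 3 each) and 47.3% for Ahnak (5.69 ± 2.13 against 12.0 ± 2.13 CPM), and those of the other 6 genes were 21.9% to 31.0%. The 21.9% was that of Ikzf2 and rested on wildtype replicate 3, without which it was 10.8%. The lowest library level of any member was 0.866 CPM, above the 0.289 CPM that a count of 0 would allow in that library as an upper limit. All 8 transcripts were thus low and not absent in the wildtype libraries, which had chosen the genes for being low. All 8 were present with the empty vector. In bulk RNA of a culture, fewer cells that carry a transcript and less of it per cell cannot be told apart.

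Mutant over wildtype is the comparison that chose the 8 genes, so its values are given as a description with no test. The log2 fold change was 3.15 ± 0.20 (SE) for Gsn, 2.32 ± 0.28 for Ahnak, 2.16 ± 0.22 for Rrad, 2.03 ± 0.15 for Papss2, 2.03 ± 0.17 for Paqr7, 1.99 ± 0.41 for Ikzf2, 1.62 ± 0.16 for Vim and 1.24 ± 0.23 for Fgf3. As ratios of mean CPM these run from 8.83-fold for Gsn to 2.35-fold for Fgf3. Over all tested genes, edgeR called 25.9% in either direction. Without wildtype replicate 3, Ikzf2 had 2.99, and without wildtype replicate 2, Gsn had 3.45 and Fgf3 had 1.67. The 8 genes are not all genes of this kind: 82 further genes that averaged 5 CPM or more had mutant libraries all above the wildtype libraries and a log2 fold change at least that of Fgf3. Without overlap, 23.3% of all tested genes were higher and 20.9% lower in mutant than in wildtype libraries.

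With wildtype GATA1 against the empty vector, all 8 genes had lower levels, with a log2 fold change of −2.57 ± 0.20 (SE) for Gsn and −1.07 ± 0.28 for Ahnak at the ends. The values between were −2.18 ± 0.41 for Ikzf2, −2.10 ± 0.15 for Papss2, −2.06 ± 0.24 for Fgf3, −1.95 ± 0.22 for Rrad, −1.80 ± 0.17 for Vim and −1.69 ± 0.17 for Paqr7. Without wildtype replicate 3, Ikzf2 had −3.18 and Gsn −2.45, so which of them was lowest turned on that library. Their median was −2.01, against −0.04 over all 9978 genes tested. All 8 were called lower by edgeR's quasi-likelihood test at an adjusted p under 0.05, and 11.9% of all tested genes were (23.3% in either direction). The wildtype libraries of this comparison are those that chose the genes for being low, so nothing is read from that count. The call of Ahnak was lost without wildtype replicate 1 (adjusted p 0.0626 in edgeR) and without wildtype replicate 2 (0.056), over a range of 2.27e-05 to 0.0626 in 16 alternatives.

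Mutant GATA1 against the empty vector asks whether the mutant moved these genes at all. In edgeR's quasi-likelihood test, 0 of the 8 genes were called in either direction, beside 0.21% of all tested genes called higher and 0.0601% called lower (0.271% in either direction). The mutant libraries had been chosen for being high, while the empty vector libraries had no part in the choice. At an unadjusted p under 0.05 in edgeR there were 3 of the 8 genes (Gsn, Ahnak and Fgf3), beside 1284 of the 9978 tested. DESeq2 called Ahnak higher and Fgf3 lower, beside 63 higher and 39 lower over all genes. A p that misses the threshold does not show that mutant and empty vector were equal. The median log2 fold change of the 8 was 0.07, against −0.00 over all genes tested, with 4 values above and 4 below 0.

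Ahnak had the highest value in that comparison. Its mutant mean was 28.6 ± 8.34 CPM against 12.0 ± 2.13 CPM with the empty vector (SD, n = 3 each), or 1.25 ± 0.26 (SE) on the log2 scale, at an adjusted p of 0.079 in edgeR. Without empty vector replicate 3 the gene was called higher (adjusted p 0.0234 in edgeR), as it was without wildtype replicate 3 (0.0324), and its alternatives ran from 2.42e-06 to 0.441. Higher is the direction that the choice of genes favours, so nothing is read from these calls. Gsn was next, with 77.9 ± 7.51 CPM in mutant and 51.9 ± 5.30 CPM in empty vector libraries, 0.58 ± 0.18 on the log2 scale and an adjusted p of 0.294 in edgeR (alternatives 0.0209 to 0.958). Paqr7 had 0.33 ± 0.16 (adjusted p 0.394) and Rrad 0.21 ± 0.19 (0.641).

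Fgf3 ran the other way. Its mean was 28.6 ± 1.497 CPM with the mutant and 50.6 ± 4.04 CPM with the empty vector (SD, n = 3 each), a log2 fold change of −0.82 ± 0.22 (SE) with an adjusted p of 0.213 in edgeR. It was called lower without wildtype replicate 2 (adjusted p 0.0162) and with only the 6 libraries of the comparison fitted (0.0272), and its alternatives ran from 0.00101 to 0.681. This is the direction opposite to the one the choice of genes favours. Vim had −0.17 ± 0.16 (0.628), Ikzf2 −0.20 ± 0.35 (0.823) and Papss2 −0.07 ± 0.14 (0.844). Mutant and empty vector libraries did not overlap for 4 of the 8 genes, with Gsn, Ahnak and Paqr7 higher and Fgf3 lower, where 8.19% of all tested genes were higher and 6.84% lower without overlap.

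**Figure D2:**
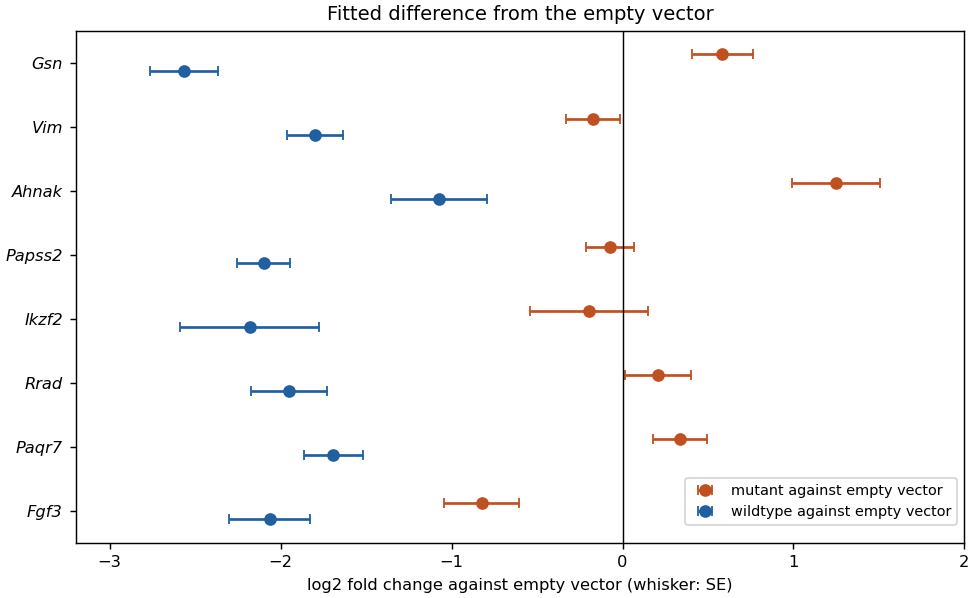
Fitted log2 fold change against the empty vector for the mutant (orange) and the wildtype (blue) in each of the 8 genes; whiskers are SE, and the vertical line marks no difference. Wildtype values lie between −2.57 and −1.07, while mutant values lie on both sides of 0, from −0.82 for Fgf3 to 1.25 for Ahnak; both sets share the empty vector libraries.

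The level of the mutant can be placed on a scale with the empty vector mean at 0% and the wildtype mean at 100%, on log2 CPM. On it Fgf3 stood at 38.5% ± 3.54 (SD over the 3 mutant libraries), and at 33.1% or more with any 1 library left out. Vim stood at 9.11% ± 9.39, Ikzf2 at 8.47% ± 12.7 and Papss2 at 3.26% ± 3.52, each within 1 SD of the empty vector. With 1 library left out, Vim ran from 3.70% to 16.6% (the highest without empty vector replicate 1, the lowest without mutant replicate 3), Ikzf2 from 2.70% to 15.3% (without mutant replicates 2 and 3) and Papss2 from 0.625% to 6.46% (without empty vector replicates 2 and 1). Rrad stood at −9.45% ± 18.2, Paqr7 at −20.9% ± 4.99, Gsn at −22.6% ± 5.39 and Ahnak at −110% ± 36.7, where a negative value means a mutant level above the empty vector. Rrad ran from −20.0% without mutant replicate 3 to −4.04% without mutant replicate 2. The value of Paqr7 was −11.6% without empty vector replicate 1 and −29.1% without empty vector replicate 3. These percentages are a description, since both differences use the same empty vector libraries.

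**Figure D3:**
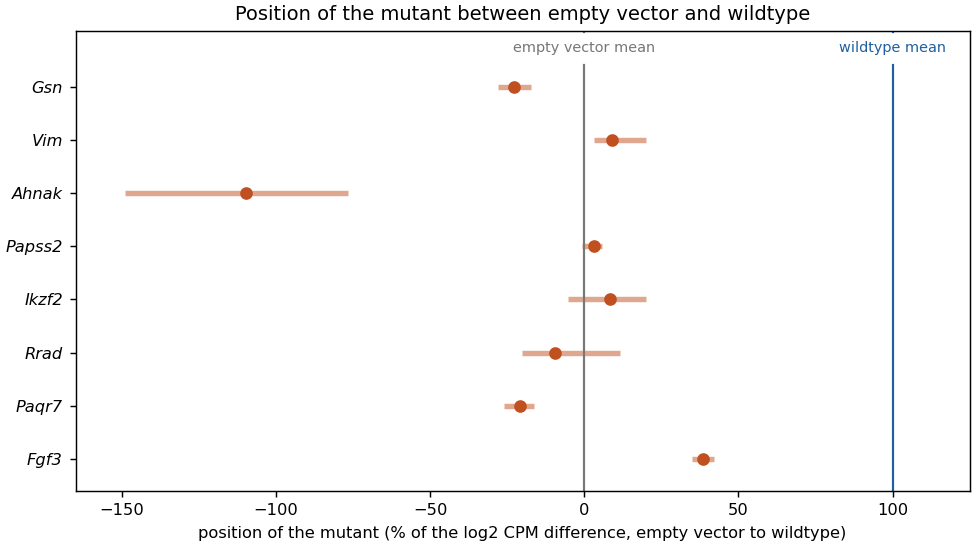
Position of the mutant on the scale from the empty vector mean (0%, grey line) to the wildtype mean (100%, blue line), on log2 CPM; dots are the mean of 3 mutant libraries and bars run from the lowest to the highest library. Fgf3 is the gene on the wildtype side whose bar is clear of 0% by more than 30 percentage points, and Ahnak lies farthest on the other side, at −110%.

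Per kb of exon (union of annotated exons), the levels of the 8 genes could be ordered. With the empty vector, Vim had 44.6 ± 8.17, Fgf3 21.7 ± 1.74, Gsn 16.4 ± 1.68, Rrad 9.59 ± 0.809, Papss2 8.83 ± 0.784, Paqr7 4.91 ± 0.826, Ikzf2 0.891 ± 0.125 and Ahnak 0.603 ± 0.107 CPM per kb (SD, n = 3). Only Rrad and Papss2 overlapped among neighbours in that order. With the mutant, Gsn had 24.7 ± 2.38 and Fgf3 12.3 ± 0.644 CPM per kb, so that their order was turned, and the Rrad libraries overlapped those of Fgf3 and Papss2, while Ahnak (1.44 ± 0.418) stood above Ikzf2 (0.778 ± 0.173). With wildtype, Vim still led with 12.8 ± 2.04, and Ikzf2 (0.195 ± 0.173) and Ahnak (0.285 ± 0.107 CPM per kb) were at the bottom with overlapping libraries. Fgf3, Gsn, Rrad and Papss2 also overlapped from each to the next in the wildtype libraries. Ahnak, with 19.9 kb of exon, is thus a rare transcript for its CPM.

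Over the 9 libraries, Pearson correlations of log2 CPM between the 8 genes ran from 0.47 for Ahnak and Fgf3 to 0.99 for Gsn and Paqr7, with a median of 0.86 over 28 pairs. These correlations describe libraries that fall into the 3 groups which chose the genes. Among tested genes averaging 5 CPM or more, those most like the mean profile of the 8 were Stat5a (r = 0.993), Lcp2 (0.992), Papss1 (0.990), Rab44 (0.989) and Rcsd1 (0.988). Stat5a, a signal transducer of cytokine receptors including that for erythropoietin, had 326 ± 24.1 CPM with the mutant, 114 ± 7.84 CPM with wildtype and 304 ± 43.2 CPM with the empty vector. Papss1 is the other mammalian enzyme that makes activated sulfate, and it belongs to the sulfate list described next.

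Genes of the same families and pathways were then counted, from lists drawn up by family or pathway. The lists were chosen with earlier results of these data known, so the counts are a description and not an independent check. Of 104 listed genes, 41 were tested, and most of the others had few or no counts. Mutant over wildtype, 14 were higher and 3 lower in edgeR at an adjusted p under 0.05, beside 13.2% and 12.7% of all tested genes. The median of the 41 was 0.26 on the log2 scale, against −0.01 over all genes tested. Blocking these 6 libraries by replicate number gave 17 higher and 4 lower. Over all genes the blocked fit called 2323 higher and 2417 lower, in place of 1313 and 1267. With wildtype against the empty vector, 5 were higher and 14 lower, beside 11.4% and 11.9% of all genes, at a median of −0.49 against −0.04. The 14 became 9 without wildtype replicate 1, wildtype replicate 2 or empty vector replicate 2. The 5 became 3 without mutant replicate 2, and 2 with either wildtype replicate 1 or empty vector replicate 2 left out.

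With the mutant against the empty vector, 0 of the 41 were called in edgeR, beside 0.271% of all tested genes. At an unadjusted p under 0.05 in edgeR there were 8, beside 1284 of the 9978 tested genes. DESeq2 called 2 higher, beside 63 over all genes. Without empty vector replicate 3 there were 3 higher and 2 lower in edgeR, beside 227 and 610 over all genes. The 3 comparisons share libraries with each other, so they are given side by side and not as separate support.

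Both tested relatives of gelsolin, of 7 listed, were higher with the mutant than with wildtype and lower with wildtype than with the empty vector. Among all tested genes these shares were 13.2% and 11.9%. Capg, a filament-capping protein, had 129 ± 18.6 CPM with the mutant, 74.2 ± 18.9 CPM with wildtype and 138 ± 5.22 CPM with the empty vector (SD, n = 3), with a log2 fold change of 0.79 ± 0.17 (SE) mutant over wildtype (adjusted p 0.00416 in edgeR) and −0.90 ± 0.17 wildtype over empty vector. Flii, the flightless I protein, had 0.80 ± 0.15 and −0.53 ± 0.15. The fall of Flii with wildtype was lost when any of wildtype replicates 1 and 2 and empty vector replicates 2 and 3 was left out (adjusted p 0.068 to 0.0798 in edgeR, with alternatives from 0.00182 to 0.0798).

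Among 7 tested intermediate filament genes and their linker, 4 were higher and 1 lower with the mutant than with wildtype. Of all tested genes, 13.2% were higher and 12.7% lower. Plec (plectin, which ties filaments to other structures) had 41.3 ± 5.85 CPM with the mutant, 18.0 ± 4.28 CPM with wildtype and 26.7 ± 10.4 CPM with the empty vector, and a log2 fold change of 1.197 ± 0.25 mutant over wildtype (adjusted p 0.00464 in edgeR). Des (desmin, of the same filament type as vimentin) had 0.89 ± 0.19 (0.0047) and Nefh, the heavy neurofilament protein, 0.50 ± 0.13 (0.0162). The call of Nefh was lost without mutant replicates 1 or 2 or wildtype replicates 1 or 2, with alternatives from 0.000518 to 0.0765. With wildtype against the empty vector 2 of the 7 were higher (Gfap and Lmna) and 3 lower (Des, Nefh and Lmnb2). The shares of all tested genes were 11.4% and 11.9%. Des and Nefh fell with log2 fold changes of −0.997 ± 0.19 and −0.61 ± 0.13, while Plec had −0.57 ± 0.26 and was not called. Lmna, a lamin of the nuclear envelope, had 0.53 ± 0.15 (edgeR's adjusted p 0.024, alternatives 0.00431 to 0.1) and Lmnb2, another lamin, −0.78 ± 0.25 (0.0351, alternatives 0.00116 to 0.168). The call of Lmna was lost when any of wildtype replicates 1 and 2 and empty vector replicates 1 and 2 was left out, and that of Lmnb2 when any of these was left out: mutant 1, wildtype 1, wildtype 2, empty vector 2 and empty vector 3. Plec was called lower there without wildtype replicate 3 (adjusted p 0.0486 in edgeR) or empty vector replicate 1 (0.0246), over alternatives from 0.0126 to 0.458. The gene that was lower with the mutant was Gfap, the filament protein of astrocytes, named here because its value stood out. It had 1, 2 and 7 counts with the mutant, 65, 69 and 50 counts with wildtype and 0, 1 and 3 counts with the empty vector.

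Among proteins that work with AHNAK, the annexins Anxa2 and Anxa5 were the 2 tested of 9 listed, and both fell with wildtype. Against the empty vector, 11.9% of all tested genes were called lower with wildtype. Anxa5 had 332 ± 19.3 CPM with the mutant, 194 ± 10.6 CPM with wildtype and 379 ± 16.1 CPM with the empty vector, a log2 fold change of 0.77 ± 0.10 mutant over wildtype (adjusted p 0.000186 in edgeR) and −0.96 ± 0.10 wildtype over empty vector. Anxa2, the partner that AHNAK binds together with S100A10, had 0.62 ± 0.19 (0.0277) and −0.85 ± 0.19. The first of these calls was lost without mutant replicates 1 or 2 or wildtype replicate 1 (alternatives 0.00033 to 0.102). S100a10 had 0 counts in all 9 libraries. With the mutant against the empty vector, Anxa5 had −0.19 ± 0.10 and Anxa2 −0.23 ± 0.18 on the log2 scale, neither called.

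In sulfate activation and transfer, 14 of 17 listed genes were tested. Mutant over wildtype, 2 were higher and 1 lower, beside 13.2% and 12.7% of all tested genes. With wildtype against the empty vector 1 was higher and 3 were lower, beside 11.4% and 11.9%. The higher one, Slc26a1 (edgeR's adjusted p 0.034), was called in 9 of 16 alternatives. Bpnt1, 1 of the lower ones (0.0479), was called in 2 of 16. Papss1 had 90.2, 93.3 and 83.4 CPM with the mutant, 51.1, 55.3 and 52.6 CPM with wildtype and 82.4, 89.5 and 88.7 CPM with the empty vector. Its groups were placed like those of Papss2, with mutant and empty vector together, at a smaller log2 fold change of 0.75 ± 0.11 mutant over wildtype (adjusted p 0.000321 in edgeR) and −0.71 ± 0.11 wildtype over empty vector. Chst11, a chondroitin sulfotransferase, had 0.65 ± 0.15 and −0.59 ± 0.15. Slc35b3, which carries activated sulfate into the Golgi, was lower with the mutant than with wildtype (−0.63 ± 0.17, adjusted p 0.0162), a call lost without mutant replicates 1 or 2 or wildtype replicate 2 (alternatives 0.000233 to 0.0697).

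Among the other Ikaros factors, 3 of 4 were tested. Ikzf4 was higher with the mutant than with wildtype (log2 fold change 0.82 ± 0.19, edgeR's adjusted p 0.00745), beside 13.2% of all tested genes. With wildtype against the empty vector 0 of the 3 were called, beside 23.3% of all tested genes in either direction. In edgeR 1 of them had an unadjusted p under 0.05 there, beside 3639 of the 9978 genes. DESeq2 called Ikzf1 higher with wildtype, beside 1387 over all genes. None of the 7 genes listed for the RGK group and calcium channel beta subunits had enough counts to be tested, so Rrad was measured without its relatives. In the progestin and adipoQ receptor family, 6 of 12 were tested. Paqr4 was higher (0.92 ± 0.24, adjusted p 0.0147) and the adiponectin receptor Adipor1 lower (−0.74 ± 0.11, 0.000426) with the mutant than with wildtype. Of all tested genes, 13.2% were higher and 12.7% lower. The call of Paqr4 was lost without mutant replicate 1 or wildtype replicate 1 (alternatives 0.00117 to 0.0765). With wildtype against the empty vector, 1 of the 6 was higher and 0 lower, beside 11.4% and 11.9% of all tested genes. Adipor1 was the higher one (0.82 ± 0.11, edgeR's adjusted p 0.000171). Paqr4 was not called (−0.60 ± 0.25, 0.0955), but was called lower without empty vector replicate 1 (0.0393).

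FGF signalling had 7 tested genes of 31, and the FGF family genes Fgf15 and Fgf11 were higher with the mutant than with wildtype. The share of all tested genes called higher was 13.2%. Fgf15 lies on chromosome 7 at 52.1 kb from Fgf3, in the same cluster of growth factor genes, and is best known as a gut hormone of bile acid control. It had 241, 260 and 275 CPM with the mutant, 87.2, 89.0 and 98.3 CPM with wildtype and 174, 212 and 171 CPM with the empty vector. All mutant libraries were above all empty vector libraries, the reverse of Fgf3. The log2 fold change of Fgf15 was 1.499 ± 0.12 (SE) mutant over wildtype (adjusted p 2.38e-06 in edgeR), −1.02 ± 0.12 wildtype over empty vector (4.57e-05) and 0.48 ± 0.12 mutant over empty vector (0.17), the last called by DESeq2 at 0.0194 (alternatives 0.0194 to 0.614). Fgf11 had 1.503 ± 0.21 mutant over wildtype and −1.45 ± 0.21 wildtype over empty vector. Spred2, an inhibitor of the Ras pathway that FGF receptors use, had 9.64 ± 0.563 CPM with the mutant, 6.94 ± 2.24 CPM with wildtype and 11.5 ± 0.835 CPM with the empty vector. With wildtype against the empty vector, 1 of the 7 was higher and 4 were lower, beside 11.4% and 11.9% of all tested genes. The higher one was Fgfrl1, an FGF receptor-like protein without a kinase domain, at 0.75 ± 0.25 on the log2 scale (edgeR's adjusted p 0.0445, alternatives 0.0191 to 0.162), a call lost when any of mutant 2, mutant 3, wildtype 1, wildtype 2, empty vector 2 and empty vector 3 was left out. Spred2 fell with wildtype (−0.73 ± 0.22 on the log2 scale, edgeR's adjusted p 0.0275), a call lost when any of wildtype replicates 1 and 2 and empty vector replicate 2 was left out (alternatives 0.0061 to 0.103). Of the 4 signalling FGF receptors (Fgfr1, Fgfr2, Fgfr3 and Fgfr4), 0 had enough counts to be tested.

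**Figure D4:**
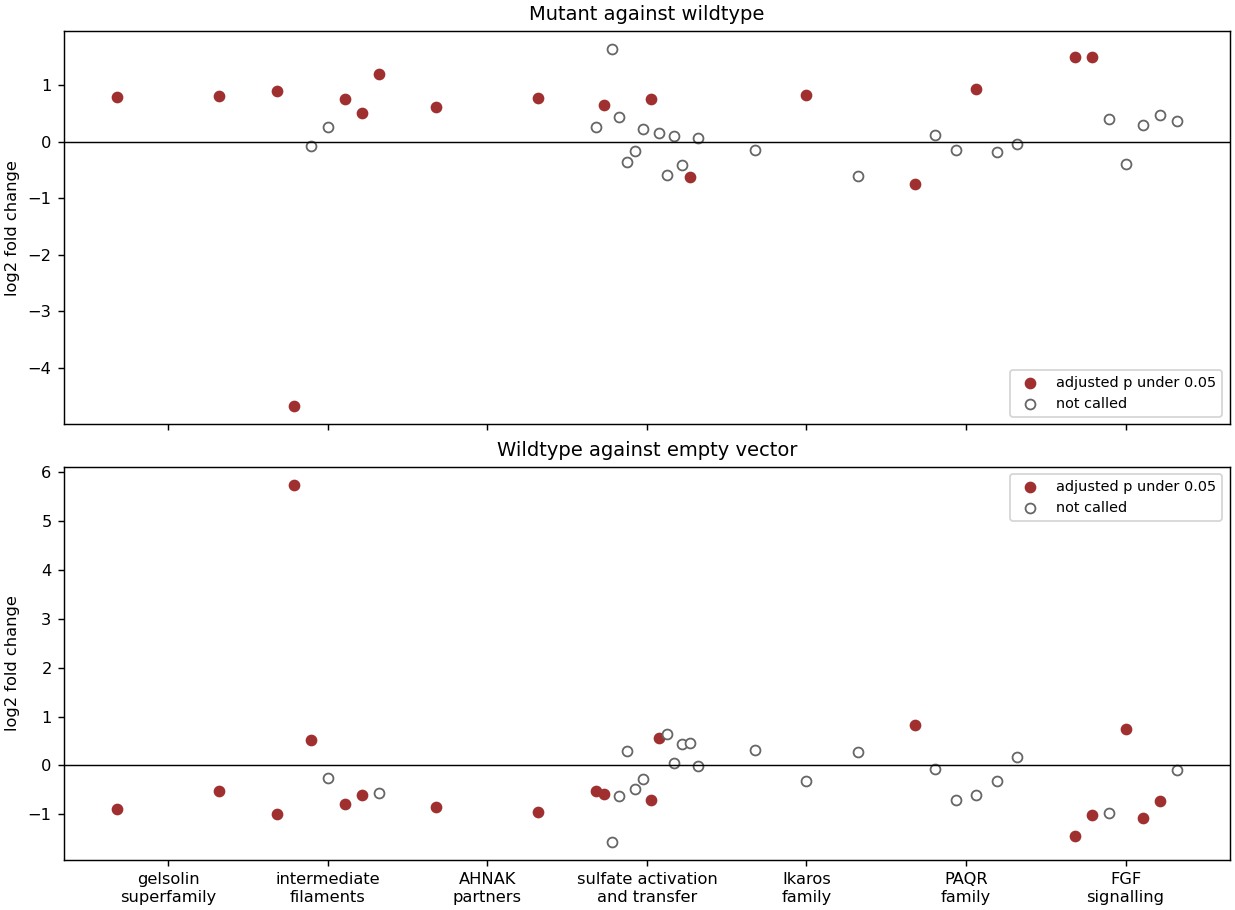
Log2 fold change of the 41 tested family and pathway genes, grouped by list, mutant over wildtype (top) and wildtype over empty vector (bottom); filled dots passed an adjusted p under 0.05 in edgeR and open dots did not. In the top panel 14 filled dots lie above 0 and 3 below it, the lowest being Gfap; in the bottom panel 5 lie above and 14 below, and the 2 panels share the wildtype libraries.

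The nearest tested gene on each side of each of the 8 made 16 genes in all. This set was chosen by position after the values of the 8 genes were known. Mutant over wildtype, 2 of the 16 were higher and 5 lower in edgeR, beside 13.2% and 12.7% of all tested genes. With wildtype against the empty vector 5 were higher and 4 lower, beside 11.4% and 11.9%, with medians of −0.01 for both. Stom, the red cell membrane protein stomatin, lies 6.09 kb from Gsn and had 28.3 ± 2.47 CPM with the mutant, 111 ± 9.19 CPM with wildtype and 27.3 ± 2.496 CPM with the empty vector. It rose with wildtype by 2.02 ± 0.13 (SE) on the log2 scale, with an adjusted p of 2.45e-07 in edgeR, next to the fall of Gsn. Ano1, a chloride channel 86.1 kb from Fgf3, had 14.2 ± 1.60 CPM with the mutant, 29.3 ± 3.92 CPM with wildtype and 8.33 ± 2.001 CPM with the empty vector, and also rose with wildtype (1.81 ± 0.19, 2.36e-05). The neighbours on the other side of Gsn and Fgf3 fell with wildtype. They were Rab14 by Gsn (−0.58 ± 0.20, edgeR's adjusted p 0.0485) and Gm26793 by Fgf3 (−0.68 ± 0.18, 0.0146). With the mutant against the empty vector, the lowest adjusted p of the 16 was 0.174, that of Ano1.

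Markers of other cell types were counted because vimentin, gelsolin and AHNAK are abundant in stromal and white blood cells. Of 10 fibroblast markers, 8 had 0 counts in all libraries, and their sum was at most 0.0878 CPM in any library. The collagen genes Col1a1 and Col1a2 were among those at 0. Macrophage markers summed to 3.73 to 4.54 CPM with the mutant, 2.501 to 2.96 CPM with wildtype and 4.03 to 4.44 CPM with the empty vector, with 5 of 10 at 0 throughout. Among them Lyz2, the lysozyme of myeloid cells, was lower with wildtype than with the empty vector (−1.96 ± 0.55 on the log2 scale, edgeR's adjusted p 0.0222). It had 117 counts in all, and its wildtype mean of 0.237 CPM lay below the floor of 3 counts in those libraries. Cd68, the other one tested, was not called (edgeR's adjusted p 0.384). Csf1r and Itgam, on few counts, had higher means with wildtype than with the empty vector. Lymphoid markers (6 of 9 at 0) summed to 0.542 to 0.734 CPM with the mutant, 0.0878 to 0.240 CPM with wildtype and 0.293 to 0.489 CPM with the empty vector, and endothelial markers (2 of 5 at 0) to at most 0.559 CPM. Mast cell and basophil markers summed to 292 to 304 CPM with the mutant, 92.1 to 118 CPM with wildtype and 319 to 419 CPM with the empty vector, with 3 of 10 at 0, and Gata2 made up most of each sum. Megakaryocyte markers summed to 68.9 to 81.2, 44.0 to 54.0 and 90.1 to 108 CPM in the mutant, wildtype and empty vector libraries, with 2 of 10 at 0. The macrophage, mast cell and megakaryocyte sums were thus lowest with wildtype without overlap. The lymphoid sum was too, but its wildtype values lay at or below the floor of 3 counts and it rested mostly on Cd3g. Not every marker followed its sum. Gp9 had its highest mean with wildtype (7.29 CPM, against 6.59 with the mutant and 5.81 with the empty vector). Ms4a2 had a higher mean with wildtype (0.363 CPM) than with the mutant (0.142 CPM, below the floor of 3 counts), and 1.72 CPM with the empty vector. Of the 4 mast cell and basophil markers tested, 2 were lower with the mutant than with the empty vector, beside 0.0601% of all tested genes. They were Cpa3 (−1.43 ± 0.16 on the log2 scale, edgeR's adjusted p 0.00134) and Ms4a2 (−3.52 ± 0.64, 0.0403), while Hdc and Gata2 were not called. The part of these markers in the results was not tested.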

How the data were processed

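RNA was measured in 9 Smart-seq2 libraries with Nextera-based indexing, per the labels' protocols. The authors deposited raw counts of reads per gene. STAR, GRCm38.p4 and hg19 are named in the submitters' processing notes; the sources used here give no counting tool and no annotation. Groups and replicate numbers came from the sample titles, and p-values measure only the spread between these libraries.

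The test was that of edgeR 4.0.16 under R 4.3.3 (TMM, filterByExpr, quasi-likelihood F-test, 1 mean per group, all 9 libraries, 9978 mouse genes tested, Benjamini-Hochberg adjustment within a comparison, threshold 0.05). Human GATA1 counted toward library totals and was not tested. Each SE is approximate, from the log2 fold change divided by the root of its F-statistic. Log2 CPM used a prior count of 2. Floors are 3 counts per library (0.169 to 0.289 CPM) and cover counting error only. The script was tested on simulated data. DESeq2 1.42.0, other filters and factors, a replicate block and leaving out each library were tried. Itgam stands on 2 rows, and the row with more counts was used.

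The 8 genes and the lists were chosen with earlier results of these data known. Named genes are the 8, per family list up to 3 genes of at least 5 CPM called in any comparison, by smallest p in mutant over wildtype, and the 5 genes most like the mean profile. Other genes were named outside this rule, after their values were seen. They are Gfap, Lmna, Lmnb2, S100a10, Slc26a1, Bpnt1, Ikzf1, Fgfrl1, the FGF receptors, single cell type markers and the neighbouring genes. Same-numbered mutant and wildtype libraries deviated together from their group means (r = 0.34, 0.48 and 0.71 over 8365 genes), all above 0.1. The numbers may thus pair these groups. The main fit has no replicate term, so its mutant over wildtype p-values leave such a pairing out, and a block by replicate number was tried as an alternative. Mutant 1 with wildtype 2 (0.38) and mutant 2 with wildtype 1 (0.37) went together as closely, so replicate 3 is set apart more clearly than 1 from 2. Against the empty vector same-numbered libraries had r from −0.62 to −0.38. Locations are those of GENCODE M21, promoters those of RefSeq on GRCm38.p6.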

Additional observations from a re-analysis of the deposited data

How the results depend on the processing

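For the 8 genes and the tested family genes, no called value changed sign under the alternatives tried; neighbours, markers and the genes most like the 8 were not refitted one by one. For the 8 genes with the mutant against the empty vector, where edgeR called 0, DESeq2 gave 1 higher and 1 lower, no filter on low counts 2 higher and 1 lower, and fitting only the 6 libraries 1 lower. Leaving out 1 library gave 0 to 1 higher and 0 to 1 lower. The position of the mutant ran from 33.1% to 41.9% for Fgf3 and from −29.1% to −11.6% for Paqr7 when 1 library was left out. Of the 41 family genes with the mutant against the empty vector, DESeq2 gave 2 higher, no filter 3 higher and 3 lower, and leaving out 1 library 0 to 3 higher and 0 to 2 lower. With wildtype against the empty vector, the 5 higher family genes became 8 in DESeq2 and 3 each with a minimum of 5 CPM, with mutant replicates 1 and 2 summed, with only the 6 libraries and with the replicate block. Leaving out 1 library gave 2 to 6 higher and 9 to 18 lower. Mutant over wildtype, no filter gave 5 lower family genes. Over all genes with the mutant against the empty vector (21 higher, 6 lower), DESeq2 gave 63 and 39, summing mutant replicates 1 and 2 gave 9 and 2, no filter 119 and 294 and the replicate block 12 and 2. Leaving out 1 library gave 5 to 227 higher and 2 to 610 lower, the upper ends without empty vector replicate 3. Mutant over wildtype over all genes, summing mutant replicates 1 and 2 gave 779 and 772, the replicate block in these 6 libraries 2323 and 2417, and leaving out 1 library 693 to 1581 higher and 778 to 1577 lower. With wildtype against the empty vector over all genes (1137 higher, 1186 lower), leaving out 1 library gave 732 to 1614 higher and 655 to 1641 lower. The blocked fit changed no call of the 8 genes. The causes were not tested. The lowest count of a member was 9, for Ikzf2 in wildtype replicate 2.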
